A study of Homo sapiens with 6 samples.

Results

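The zinc finger genes of human chromosome 19 were described in MDA-MB-231 cells, a triple-negative breast cancer (TNBC) line, after treatment with SCH, the short name for the medicinal plant Salvia chinensis Benth. The rule takes the protein-coding genes annotated on chromosome 19 whose name is ZNF followed by a number. This gave 246 genes of 58735 in the count table. They make up 48.3% of the 509 protein-coding ZNF genes of the genome and 16.7% of the 1472 protein-coding genes of chromosome 19. The study sequenced mRNA from 3 samples given vehicle and 3 given SCH at 100 mg/l, each for 24 h, and all 6 carry the wild-type label of the same line. The question was how the transcriptome of TNBC cells responds to SCH. The labels do not say whether the 3 samples of a group were separate cultures, so the p-values measure the spread between these samples, which may be technical. Total counts were 20291379, 18714240 and 18334857 in the vehicle-treated samples and 16836369, 17979434 and 18414924 in the SCH-treated samples.

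Most proteins of this family carry a row of C2H2 zinc fingers, each a short loop folded around a zinc ion, and the fingers together read a DNA sequence. Many also carry a KRAB domain, which recruits the scaffold protein TRIM28 (KAP1) and through it SETDB1, HP1 proteins and the NuRD complex, so that the bound DNA, often a transposable element, is packed into silent chromatin. The genes arose by repeated tandem duplication and stand in clusters along chromosome 19, where neighbours are often close copies of each other. Their mRNAs are usually scarce.

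Of the 10 markers listed for the line, VIM, CD44, AXL and LGALS1, which mark its mesenchymal state, had mean levels of 222, 97.9, 228 and 567 FPKM, a unit that divides counts by gene length and depth. The estrogen and progesterone receptor genes ESR1 and PGR and the epithelial cadherin CDH1 were too low to test. ERBB2, GATA3 and EPCAM, listed as low or absent in the line, had 7.44, 3.04 and 5.56 FPKM, of which the first and the last lie above the median of 4.70 FPKM over all tested genes. After SCH the markers themselves moved, with log2 fold changes of -0.56 for VIM, -0.84 for AXL and -0.14 for LGALS1, which were lowered, -0.79 for GATA3 and -0.52 for EPCAM, also lowered, and 0.29 for ERBB2, which was raised, while CD44 was not called (0.03). Of the 5 markers of other cell types, CD3E, CDH5 and ALB were too low to test and the endothelial gene PECAM1 was not called. The leukocyte gene PTPRC, the most abundant of the 5 after vehicle, fell from 1.99 ± 0.075 to 0.290 ± 0.171 normalized CPM (SD, n = 3 each), where CPM is the count scaled by library size and TMM factor. The 5 together summed to 2.82, 3.62 and 3.15 CPM after vehicle and to 1.15, 1.82 and 1.84 CPM after SCH, and their part in the results was not tested.

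After SCH, 89 of the zinc finger genes were raised and 25 were lowered. The genes were tested on counts with edgeR's quasi-likelihood test across all genes, with an adjusted p under 0.05 as the threshold for a call. The filter on low counts let 210 of the 246 through. Of the other 36, 13 had no count in any sample, and the largest mean count among the 36 was 9.17. The 114 called genes are 54.3% of those tested, near the 58.7% called among all 14736 tested genes, so the members were not called more often than other genes. By direction the shares were further from those of all genes. Raised members were 42.4% of the tested members, against 29.3% of all tested genes, and lowered members were 11.9%, against 29.4%. The median log2 fold change was 0.25 over the 210 genes (quartiles -0.06 and 0.54) and -0.003 over all tested genes, and 149 of the 210 (71.0%) lay above 0. Raised members had a median of 0.57, and lowered members a median of -0.41. A log2 fold change of 1 or more in size was seen in 8 raised genes and 1 lowered gene. In 126 genes (60.0%) the 3 SCH-treated and 3 vehicle-treated samples did not overlap, against 62.4% of all tested genes. With library size alone in place of TMM, the median of all tested genes moved to 0.099 and that of the members to 0.36, and 89.3% of the called members were raised in place of 78.1%, while among all called genes the share moved to 62.6% from 49.9%.

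Genes of like kind were counted in the same way. Among all tested genes 29.3% were raised and 29.4% lowered. Over the 12423 tested protein-coding genes the shares were 32.4% and 30.4%, with a median log2 fold change of 0.01. The 224 tested protein-coding ZNF genes on other chromosomes had 63 raised (28.1%) and 55 lowered (24.6%) members and a median log2 fold change of 0.04. Among the 687 other tested protein-coding genes of chromosome 19, 240 were raised (34.9%) and 212 lowered (30.9%), again with a median of 0.04. The 29 tested genes named ZFP or ZSCAN, which are related finger genes under other symbols, had 9 raised (31.0%), 4 lowered (13.8%) and a median of 0.11. These values are descriptions, and the difference between the sets was not tested.

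**Figure D1:**
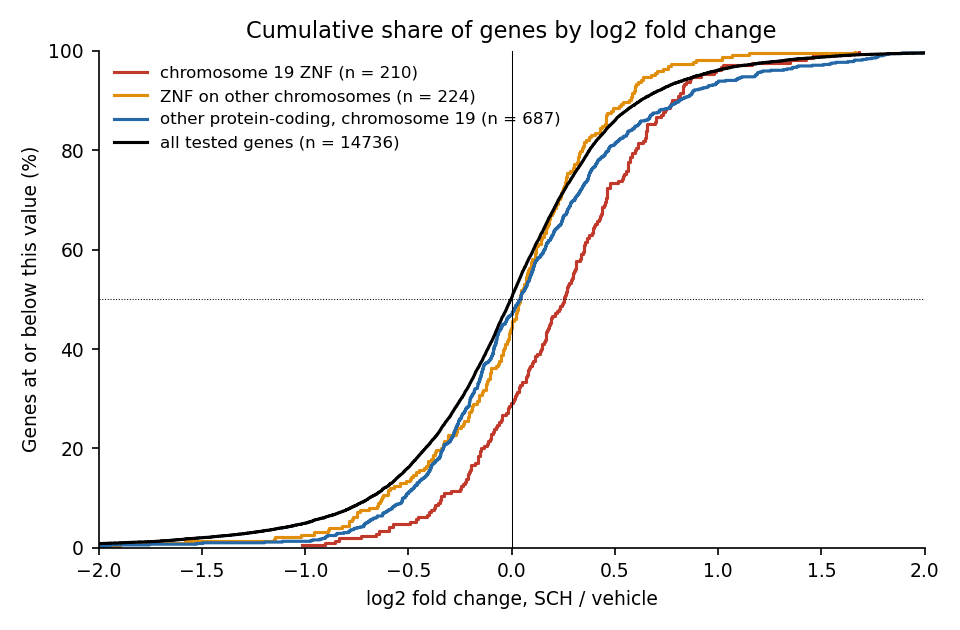
Cumulative share of genes (vertical axis, %) at or below each log2 fold change of SCH over vehicle (horizontal axis), for the 210 tested chromosome 19 ZNF genes, 224 ZNF genes on other chromosomes, 687 other protein-coding genes of chromosome 19 and all 14736 tested genes. The line of the chromosome 19 ZNF genes lies to the right of the others around its median of 0.25.

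Summed over all 246 genes, filtered or not, the normalized level was 2333, 2304 and 2357 CPM in the vehicle-treated samples and 2572, 2614 and 2641 CPM in the SCH-treated samples. Each SCH-treated sample lay above each vehicle-treated sample, and the ratio of the means was 1.119. These sums are small parts of the libraries, since the genes together took 0.225% of counts after vehicle and 0.270% after SCH. In bulk RNA, more cells with these transcripts and more transcripts per cell cannot be told apart. The median level of a tested member was 1.38 FPKM, against 4.70 FPKM over all tested genes, and the median of the mean counts was 144 against 452. The standard error of the log2 fold change was accordingly larger, with a median of 0.130 for members and 0.083 for all tested genes.

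Along the chromosome the genes fell into 20 clusters, where a gap of more than 500 kb starts a new one, numbered here from the end of the short arm. Rises were most numerous in clusters 18 and 4. Cluster 4, from 11.5 to 12.6 Mb (ZNF653 to ZNF791), had 25 genes, of which 21 were tested, 18 raised and 0 lowered. Its log2 fold changes ran from 0.04 to 1.46 with a median of 0.66. Cluster 18, from 51.6 to 53.6 Mb (ZNF175 to ZNF331), had 39 genes, of which 36 were tested, 25 raised and 0 lowered, with a median of 0.45 and a range from -0.20 to 1.68. The zero counts of lowered genes held in all 16 fits of the counts or FPKM, in which cluster 4 had 15 to 19 and cluster 18 had 23 to 26 raised genes. Together the pair of clusters held 43 of the 89 raised genes. The 153 tested members outside them had 46 raised (30.1%), near the 29.3% of all tested genes. They had 25 lowered (16.3%), against 29.4% of all tested genes, and a median log2 fold change of 0.15.

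The summed level of cluster 4 was 118, 120 and 122 CPM after vehicle and 172, 176 and 182 CPM after SCH. That of cluster 18 was 317, 313 and 349 CPM after vehicle and 421, 458 and 451 CPM after SCH. In both, the groups stood apart, with ratios of the means of 1.47 and 1.36. In cluster 4 a run of 11 neighbouring tested genes, from ZNF700 to ZNF443, was raised without a gap, the longest run of raised genes in any cluster. The genes of these clusters that did not pass were ZNF653, ZNF69 and ZNF490 in cluster 4 and 11 genes in cluster 18. In the latter, ZNF649, ZNF320, ZNF665 and ZNF331 had log2 fold changes of -0.20, -0.16, -0.09 and -0.12. Other protein-coding genes lay inside the same spans. In cluster 4 these were ECSIT and ELOF1, of which 1 was raised and 1 lowered, and in cluster 18 SPACA6 and PPP2R1A, of which 1 was raised. Over all clusters of at least 2 members, 38 such genes were tested, with 10 raised, 12 lowered and a median log2 fold change of -0.01.

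**Figure D2:**
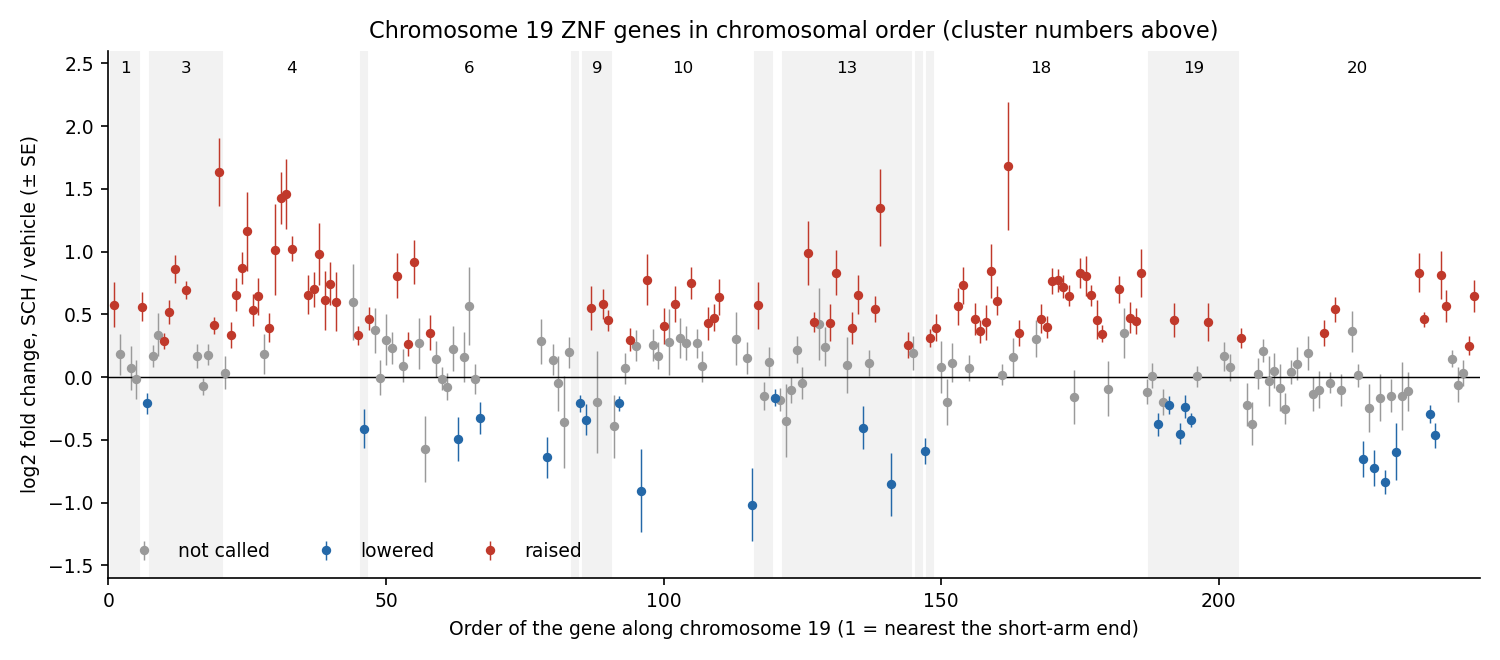
The log2 fold change of each tested gene with its standard error (vertical axis) against the order of the gene along chromosome 19 (horizontal axis, untested genes keep their place), with clusters shaded in turn and those of 5 or more genes numbered. In clusters 4 and 18, 18 of 21 and 25 of 36 tested genes were raised and none was lowered, and 11 of the 25 lowered genes lie in clusters 19 and 20.

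The shares of the other clusters are to be read beside those of all tested genes, 29.3% raised and 29.4% lowered. Cluster 3 (8.51 to 9.79 Mb) also had no lowered gene, with 6 raised of 11 tested (54.5%), 10 of the 11 above 0 and a median of 0.34. Cluster 9 had 3 raised and 1 lowered of 5, cluster 10 (36.2 to 37.8 Mb) had 8 raised and 3 lowered of 23, and cluster 13 (43.5 to 44.5 Mb) had 9 raised and 2 lowered of 19. Cluster 6, which lies beside the centromere from 19.7 to 24.1 Mb, held 37 genes. Of its 27 tested genes, 5 were raised (18.5%), 3 were lowered (11.1%) and 19 were not called. The clusters nearest the end of the long arm had medians just under 0. In cluster 19 (55.5 to 56.7 Mb) 2 of 12 tested genes were raised (16.7%) and 5 lowered (41.7%), with a median of -0.10. All 5 lowered genes there, ZNF579, ZNF865, ZNF580, ZNF581 and ZNF787, lack a KRAB A box by pattern, as do most genes of that cluster, where it was found in 4 of 16, and the exons of ZNF580 and ZNF581 overlap. In cluster 20 (57.2 to 58.5 Mb) 9 of 40 were raised (22.5%) and 6 lowered (15%), with a median of -0.04. Both medians depended on single samples. That of cluster 19 was -0.04 without vehicle sample 2, -0.05 without SCH sample 3 and -0.15 without vehicle sample 3, and that of cluster 20 was 0.02 or 0.03 without SCH sample 2 or 1, -0.00056 without vehicle sample 2 and -0.02 without vehicle sample 1 or SCH sample 3. With a gap of 1000 kb in place of 500 kb there were 16 clusters. Clusters 4 and 18 kept their genes, cluster 3 joined cluster 2 with 7 raised and 1 lowered of 13 tested genes, and clusters 19 and 20 became 1 with 11 raised and 11 lowered of 52. Over 192 pairs of neighbouring tested genes in the same cluster, the log2 fold changes had a Spearman correlation of 0.35 and a Pearson correlation of 0.30, given as a description, since neighbours share sequence and in places exons.

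**Figure D3:**
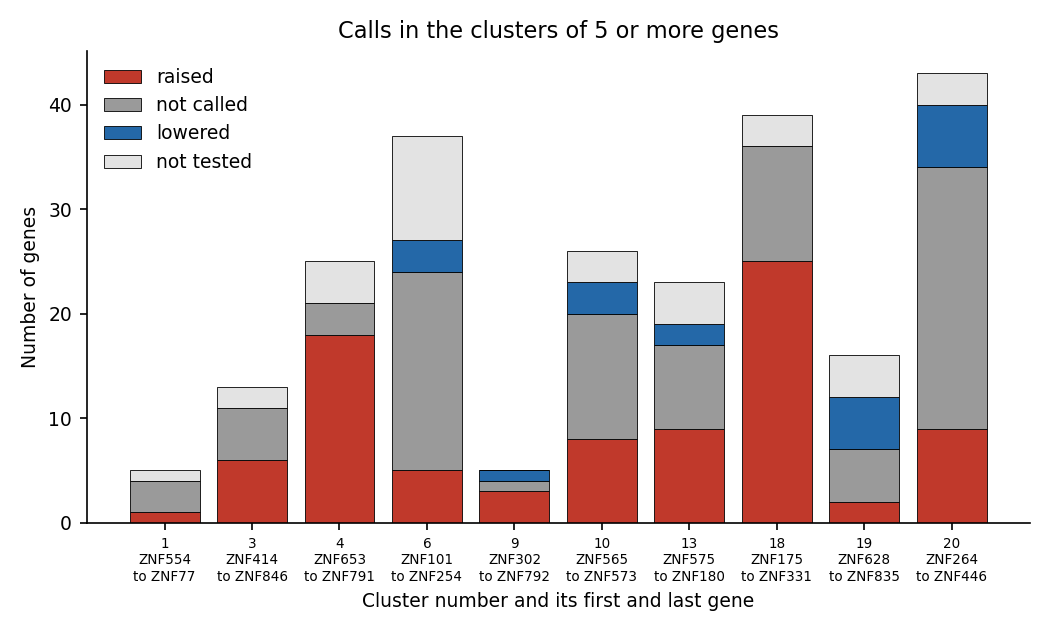
Number of genes (vertical axis) that were raised, not called, lowered or not tested in each cluster of 5 or more genes (horizontal axis, with the first and last gene). Clusters 4 and 18 have 18 and 25 raised genes and no lowered gene, and cluster 19 has more lowered (5) than raised genes (2).

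The sequences before the start sites also followed the clusters. RefSeq promoters on GRCh38.p14, which run from 250 bases before the start to 50 after it, matched 215 of the 246 genes. The letters CCAAT, a motif known for the factor NF-Y, were searched on both strands. They stood in 54.0% of the members' promoters and in 34.7% of 21021 promoters of protein-coding genes, and in cluster 4 in 22 of 24 (91.7%). In cluster 6 they stood in 28 of 29 (96.6%), and in cluster 18 in 28.1%. The longer run CCAATCAG, chosen after the windows had been seen, was in 4.56% of protein-coding promoters, in 87.5% of those of cluster 4, in 96.6% of those of cluster 6 and in 3.12% of those of cluster 18. Of the tested genes, 18 of 21 were raised in cluster 4, 5 of 27 in cluster 6 and 25 of 36 in cluster 18. The part of this motif in the calls was not tested. Windows of 40 bases from clusters 4 and 6 are printed 5′ to 3′ on the strand of the gene, with CCAAT in capitals, to show how alike they are. All lie upstream of the RefSeq start and outside every exon of GENCODE release 29. The first 4 belong to raised genes of cluster 4 (ZNF441 at chr19:11766951-11766990, plus strand, ZNF878 at chr19:12053010-12053049, minus strand, ZNF844 at chr19:12064649-12064688, plus strand, ZNF563 at chr19:12333728-12333767, minus strand).
ZNF441: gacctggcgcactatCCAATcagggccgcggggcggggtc
ZNF878: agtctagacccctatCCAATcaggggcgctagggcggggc
ZNF844: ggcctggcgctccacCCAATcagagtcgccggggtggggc
ZNF563: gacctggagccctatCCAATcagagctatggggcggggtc
The next 3 are from cluster 6, where ZNF737 (chr19:20565814-20565853, minus strand) was raised, ZNF431 (chr19:21141967-21142006, plus strand) was not called and ZNF43 (chr19:21836216-21836255, minus strand) was lowered.
ZNF737: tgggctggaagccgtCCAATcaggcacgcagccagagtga
ZNF431: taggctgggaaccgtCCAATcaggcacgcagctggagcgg
ZNF43: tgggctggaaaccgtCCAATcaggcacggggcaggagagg
The cluster 6 windows closely resemble each other, and their genes had log2 fold changes of 0.92, -0.08 and -0.33. By call, CCAAT stood in 47.5% of the promoters of raised genes, 47.8% of those of lowered genes and 60.0% of those of genes not called.

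Further motifs were also spread unevenly. CCGGAAG, the core letters bound by ETS factors, was found on either strand in 42.8% of the members' promoters and 12.9% of protein-coding promoters. Its share was 75.9% in cluster 6, 75% of the 4 promoters of cluster 9, 65.0% in cluster 20, 59.4% in cluster 18 and 8.33% in cluster 4. CCGGAAG stood in 35% of the promoters of raised genes, 47.8% of those of lowered genes and 48.2% of those of genes not called. TGACGTCA, the palindrome known as the cAMP response element, was in 41.7% of the 12 promoters of cluster 3 and 2.24% of protein-coding promoters. Over all members it was in 2 of 80 promoters of raised genes, 0 of 23 of lowered genes and 6 of 85 of genes not called. The longest upstream stretches shown are those of ZNF844, the member with the smallest p in cluster 4, and of ZNF266, that of cluster 3, since they hold different motifs and both genes rose. They end before the first exon of GENCODE, at chr19:12064481-12064698 on the plus strand and chr19:9435579-9435823 on the minus strand, with any of these motifs in capitals.
ZNF844: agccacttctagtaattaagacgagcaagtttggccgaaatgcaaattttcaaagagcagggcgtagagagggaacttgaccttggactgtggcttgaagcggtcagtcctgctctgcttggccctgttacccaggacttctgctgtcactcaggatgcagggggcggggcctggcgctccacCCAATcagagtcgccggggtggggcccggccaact
ZNF266: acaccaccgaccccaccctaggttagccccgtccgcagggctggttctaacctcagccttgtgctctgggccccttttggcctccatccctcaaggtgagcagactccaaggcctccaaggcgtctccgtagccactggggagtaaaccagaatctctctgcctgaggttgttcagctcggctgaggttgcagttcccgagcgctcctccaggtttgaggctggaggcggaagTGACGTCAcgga
A match of letters is a description and says nothing of which factor was bound in these cells.

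Among raised genes with 50 or more counts on average, the largest rises were in clusters 4, 6, 3 and 18. ZNF433 (ENSG00000197647), a KRAB zinc finger gene with 18 fingers, lies on chromosome 19 from 12014732 to 12035741. It had 2.10, 1.28 and 1.69 CPM after vehicle and 4.82, 4.46 and 4.47 CPM after SCH. All 3 SCH-treated samples lay far above the highest vehicle-treated sample, and the log2 fold change was 1.43 (standard error 0.20, edgeR adjusted p = 2.36e-06). Its exons share 17.6% of their bases with the antisense gene ZNF433-AS1 and with AC008770.1, so reads there may belong to another gene.

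ZNF844 (ENSG00000223547), from 12064699 to 12081565, a KRAB gene with 6 fingers and no exonic overlap with another gene, had the smallest p of cluster 4. Its levels were 10.3, 8.58 and 9.73 CPM after vehicle and 19.9, 18.5 and 19.9 CPM after SCH (log2 fold change 1.02, standard error 0.10, edgeR adjusted p = 5.19e-09). The groups were far apart compared with the spread inside either. ZNF441, a KRAB gene with 14 fingers in the same cluster, went from 5.54, 5.24 and 5.40 CPM to 8.43, 10.4 and 10.7 CPM (log2 fold change 0.87, edgeR adjusted p = 4.48e-06), again without overlap.

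ZNF559 in cluster 3, a KRAB gene with 9 fingers and 12.9% of its exonic bases shared with the readthrough gene ZNF559-ZNF177, had 7.74, 7.30 and 7.25 CPM after vehicle and 12.5, 13.3 and 14.8 CPM after SCH (log2 fold change 0.86, edgeR adjusted p = 5.31e-07). Its neighbour ZNF266 had 21.5, 21.2 and 21.5 CPM after vehicle, nearly the same in all 3, and 36.3, 35.1 and 32.7 CPM after SCH (log2 fold change 0.69, standard error 0.07, edgeR adjusted p = 2.89e-08). ZNF737, the largest rise in cluster 6, went from 3.33, 2.62 and 2.87 CPM to 5.96, 4.56 and 6.20 CPM (log2 fold change 0.92). No vehicle-treated sample of these 3 genes reached an SCH-treated one.

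In cluster 18 the smallest p was that of ZNF600 (ENSG00000189190), from 52749942 to 52786807, a KRAB gene with 18 fingers. It had 12.6, 10.7 and 12.5 CPM after vehicle and 21.0, 20.7 and 19.3 CPM after SCH, so that the groups were well apart (log2 fold change 0.77, standard error 0.09, edgeR adjusted p = 2.30e-07). Its protein shares 31.8% of its words of 8 residues with that of ZNF611, which had a log2 fold change of 0.77 as well, and reads from such near copies are hard to assign. ZNF836, with 24 fingers and 13.1% of its exonic bases shared with AC011468.2, had 2.41, 1.56 and 1.97 CPM after vehicle and 2.98, 3.92 and 3.79 CPM after SCH, closer groups than those of ZNF600 (log2 fold change 0.84, standard error 0.22, edgeR adjusted p = 0.00177). The other raised genes of the cluster had log2 fold changes from 0.35 to 1.68.

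In clusters 9, 13 and 10 the smallest p also belonged to raised genes. ZNF792 in cluster 9 had 17.1, 18.8 and 16.5 CPM after vehicle and 23.2, 25.4 and 22.9 CPM after SCH (log2 fold change 0.45). In cluster 13, ZNF45 went from 23.4, 22.9 and 21.5 CPM to 33.5, 30.9 and 27.7 CPM (log2 fold change 0.44). Both rose without overlap between the groups. ZNF585A in cluster 10 had 5.59, 6.24 and 7.08 CPM after vehicle and 9.40, 11.1 and 11.2 CPM after SCH (log2 fold change 0.75), but its protein shares 51.8% of its 8-residue words with ZNF585B, which was not called (log2 fold change 0.27, edgeR adjusted p = 0.0552), so the split of reads between this pair is uncertain.

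The largest fold changes of all rested on few reads. ZNF610 had 2, 3 and 6 counts after vehicle and 14, 11 and 11 after SCH, and its log2 fold change of 1.68 had a standard error of 0.51. ZNF846 had 14, 18 and 15 counts after vehicle and 35, 55 and 57 after SCH (log2 fold change 1.64), and ZNF878 in cluster 4 had 16, 12 and 22 against 43, 39 and 56 (log2 fold change 1.46). On the other side, ZNF573 had 43, 28 and 31 counts after vehicle and 14, 22 and 14 after SCH, the 1 fall past 1 on the log2 scale (-1.02, standard error 0.29, edgeR adjusted p = 0.0048). ZNF235 in cluster 13 had 13, 23 and 12 counts after vehicle and 31, 37 and 55 after SCH (log2 fold change 1.35). These 5 genes were singled out after their values had been seen.

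**Figure D4:**
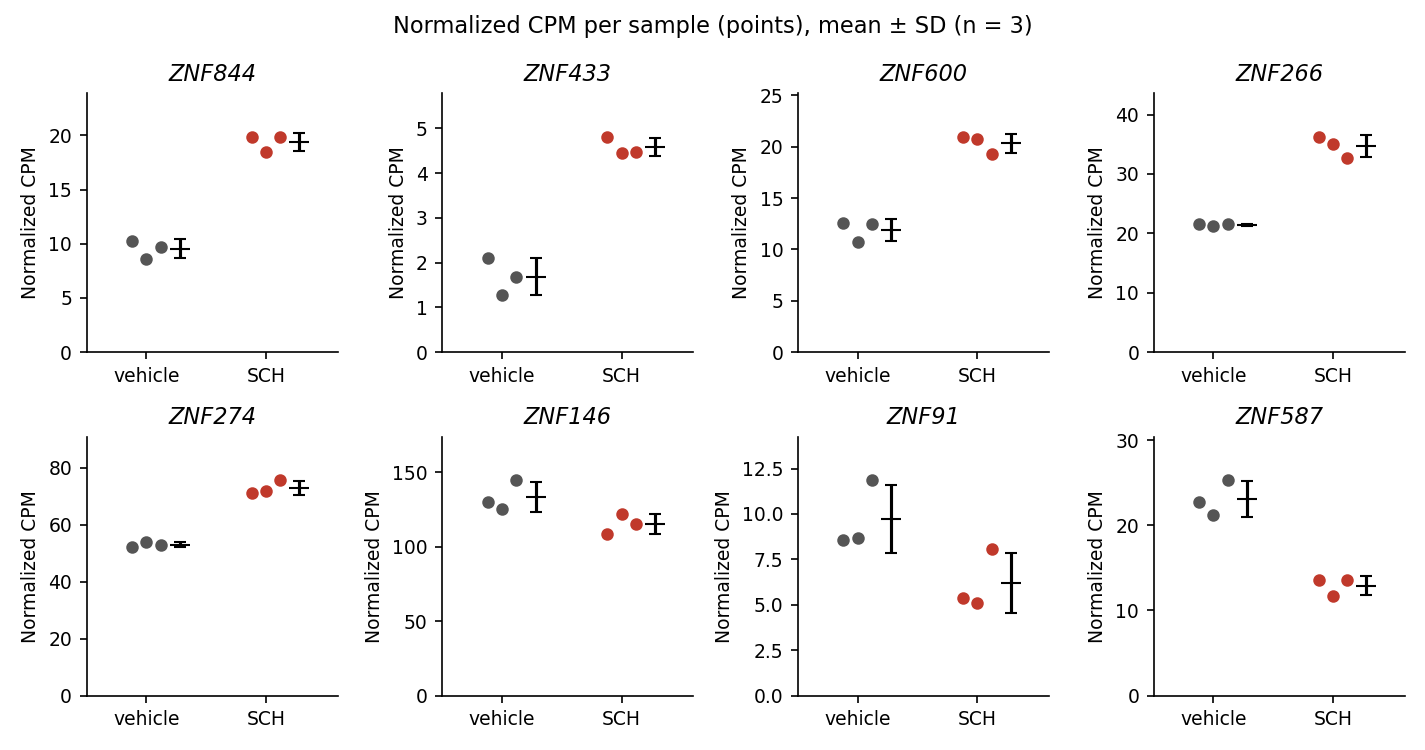
Normalized CPM (vertical axes, from 0) of 8 genes in the 3 vehicle-treated and 3 SCH-treated samples (points), with the mean and SD of each group beside them. ZNF844, ZNF433, ZNF600, ZNF266 and ZNF274 lie higher and ZNF146, ZNF91 and ZNF587 lower in every SCH-treated sample, with the nearest groups in ZNF146 and ZNF91.

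The falls among genes with 50 or more counts on average were led by 3 that lie close together in cluster 20. ZNF587 (ENSG00000198466), from 57849857 to 57865112, encodes a KRAB protein known to act on HERV-K endogenous retroviruses. It had 22.7, 21.2 and 25.3 CPM after vehicle and 13.5, 11.6 and 13.6 CPM after SCH, so every SCH-treated sample was well below the vehicle-treated ones (log2 fold change -0.84, standard error 0.09, edgeR adjusted p = 7.22e-08). ZNF587B had 8.56, 8.86 and 6.80 CPM after vehicle and 4.36, 5.31 and 4.94 CPM after SCH (log2 fold change -0.73), and ZNF586 had 8.82, 6.57 and 7.48 against 4.93, 4.56 and 5.05 CPM (log2 fold change -0.66). The 3 genes share exonic bases with AC010522.1, a fraction of 35.0%, 14.6% and 10.6% of their exons with all overlapping genes, so reads there may belong to more than 1 gene. The near copy of ZNF587 is ZNF417, whose protein shares 77.3% of its 8-residue words, the most of any tested pair. ZNF417, which acts on the same retroviruses, was not called, with 6.72, 7.80 and 7.25 CPM after vehicle and 6.99, 6.44 and 6.20 CPM after SCH (log2 fold change -0.15, edgeR adjusted p = 0.339), and its groups overlapped. Without vehicle sample 2 it was -0.09, and 11.9% of its exonic bases are shared with AC010326.2.

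ZNF91 (ENSG00000167232), from 23304991 to 23395560, has 31 fingers and is known to repress SVA retrotransposons. It had 8.56, 8.69 and 11.9 CPM after vehicle and 5.39, 5.10 and 8.10 CPM after SCH. The highest SCH-treated sample came near the lowest vehicle-treated one, and the log2 fold change was -0.64 (standard error 0.16, edgeR adjusted p = 0.00158). ZNF114 fell from 14.4, 16.2 and 16.4 CPM to 11.4, 9.45 and 10.4 CPM (log2 fold change -0.59, edgeR adjusted p = 3.28e-05), without overlap. ZNF738, a KRAB gene with 0 fingers by the pattern searched, had 3.90, 4.90 and 4.67 CPM after vehicle and 3.44, 2.68 and 3.42 CPM after SCH (log2 fold change -0.49, edgeR adjusted p = 0.0196). The call of ZNF738 was lost without vehicle sample 2 (-0.42, adjusted p = 0.0821), vehicle sample 3 (-0.46, 0.0531) or SCH sample 2 (-0.38, 0.111). The number of lowered genes itself fell from 25 to 16 without SCH sample 2.

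Genes with other known roles gave mixed values. ZNF274, which binds the 3′ ends of zinc finger genes and recruits SETDB1 to them, was the clearest rise in cluster 20, with 52.3, 54.0 and 52.9 CPM after vehicle and 71.3, 71.9 and 75.7 CPM after SCH (log2 fold change 0.46, standard error 0.06, edgeR adjusted p = 3.45e-07). The groups were far apart against a spread of a few CPM. ZNF93, which acts on LINE retrotransposons, had 6.72, 6.91 and 6.75 CPM after vehicle and 6.99, 8.0 and 8.89 CPM after SCH. Its groups did not overlap, but it was not called (log2 fold change 0.23, edgeR adjusted p = 0.126). ZNF649, also known for LINE elements, ZNF331, an imprinted gene, and ZNF675, an inhibitor of TRAF signaling, were not called, with log2 fold changes of -0.20, -0.12 and 0.14. Single samples moved these, ZNF649 to -0.34 without vehicle sample 1 and 0.04 without vehicle sample 2, ZNF331 to -0.06 without vehicle sample 3, and ZNF675 to 0.08 without vehicle sample 1 and 0.23 without vehicle sample 3. Nearly the same level in both groups was found for ZNF506, ZNF444 and ZNF628, with log2 fold changes of -0.004, 0.005 and 0.012 and standard errors of 0.14, 0.08 and 0.10.

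The members with the highest level per length had small changes. ZNF146, with 10 fingers, no KRAB A box and 10.8% of its exonic bases shared with ZNF565, was the highest at 28.995 FPKM, and had 130, 125 and 145 CPM after vehicle and 108, 122 and 115 CPM after SCH (log2 fold change -0.21, standard error 0.06, edgeR adjusted p = 0.00433). ZNF787, at 21.5 FPKM, fell from 95.9, 92.4 and 85.2 CPM to 73.0, 71.0 and 72.1 CPM (log2 fold change -0.34, edgeR adjusted p = 2.02e-05). In both the groups did not overlap, but the call of ZNF146 was lost with library size only (-0.11, adjusted p = 0.137). ZNF317, at 10.5 FPKM and with a KRAB domain, was raised (log2 fold change 0.29, edgeR adjusted p = 0.000379). ZNF428 was not called (log2 fold change 0.22, edgeR adjusted p = 0.0884), and was called without vehicle sample 2 (0.37, adjusted p = 0.00432) or SCH sample 2 (0.29, 0.0386), with library size only (0.32, 0.0135), without the filter (0.24, 0.0153) and with the replicate block (0.23, 0.0366). It was 0.07 (adjusted p = 0.508) without vehicle sample 3 and 0.13 (0.348) without SCH sample 1, and 27.6% of its exonic bases are shared with SRRM5. ZNF581 and ZNF574 were lowered by little, with log2 fold changes of -0.24 (edgeR adjusted p = 0.0273) and -0.16 (edgeR adjusted p = 0.0378, groups overlapping). Both calls were lost when single samples were left out. That of ZNF581 was lost without vehicle sample 2 (-0.19, adjusted p = 0.103), SCH sample 2 (-0.24, 0.0546) or SCH sample 3 (-0.14, 0.222), and that of ZNF574 without vehicle sample 1 (-0.13, 0.167) or 2 (-0.14, 0.132) or SCH sample 1 (-0.12, 0.154) or 2 (-0.16, 0.0987).

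By protein features, 202 of the 246 genes matched a KRAB A box pattern in a coding transcript, and the median number of fingers was 12, with a range from 0 to 36. Of the 173 tested genes with the KRAB pattern, 77 were raised (44.5%) and 16 lowered (9.25%), beside 29.3% and 29.4% of all tested genes, and the median log2 fold change was 0.29. Of the 37 without it, 12 were raised (32.4%) and 9 lowered (24.3%), near the shares over all tested genes, with a median of 0.04. The pattern was found in 23 of the 25 genes of cluster 4 and in 38 of the 39 of cluster 18. These clusters had 18 and 25 raised genes, and their part in the KRAB shares was not tested. The genes without the pattern were also the more abundant, with a median of 4.41 against 1.28 FPKM, and all 9 lowered ones were among the 70 tested members with the highest levels. Of these 70, 32 were raised (45.7%) and 13 lowered (18.6%). The 70 with middle levels had 30 raised (42.9%) and 4 lowered (5.71%), and the 70 with the lowest levels 27 (38.6%) and 8 (11.4%). Genes with 0 to 9 fingers had 20 raised (37.0%) and 12 lowered (22.2%) of 54. Those with 10 to 14 had 38 (42.7%) and 5 (5.62%) of 89, and those with 15 or more had 31 (46.3%) and 8 (11.9%) of 67. Over the 210 tested genes, the Spearman correlation with the log2 fold change was 0.12 for the number of fingers, -0.21 for the GC content of the transcript, 0.08 for the span of the gene and -0.09 for the mean FPKM, all given as descriptions over genes that share clusters and ancestry.

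**Figure D5:**
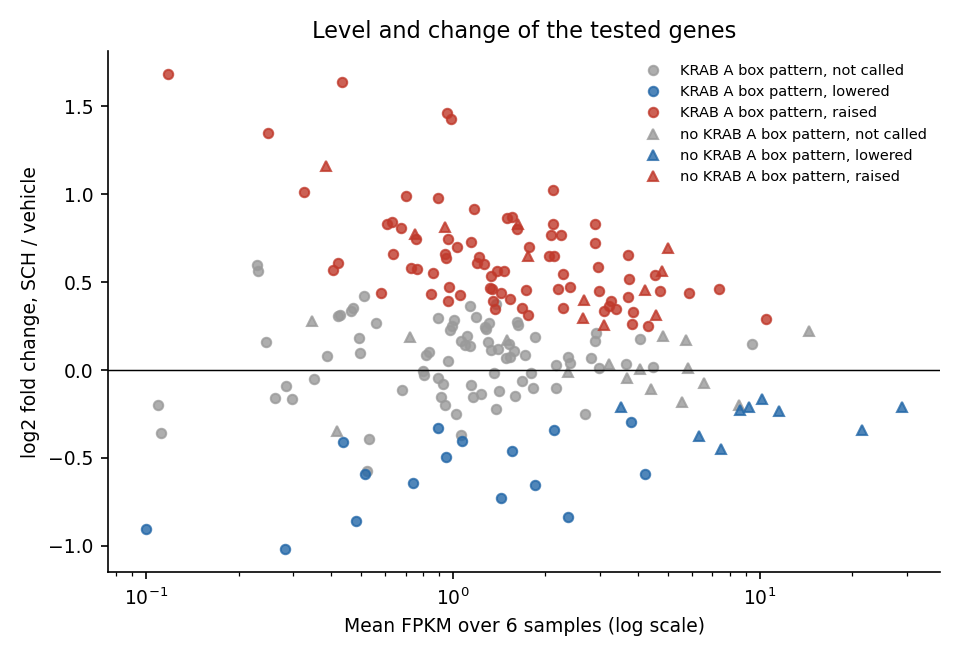
The log2 fold change (vertical axis) of the 210 tested genes against their mean FPKM over the 6 samples (horizontal axis, log scale), with circles for genes with a KRAB A box pattern and triangles for those without, coloured by call. The triangles of lowered genes lie at the right, up to ZNF146 at 28.995 FPKM, and the largest rises lie at low levels.

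KRAB zinc finger proteins work with a set of partners. On a list of 40 cofactor genes written from general knowledge, all of which were tested, 5 were raised and 20 lowered, and the median log2 fold change was -0.14. The called share was 62.5%, with 12.5% raised and 50% lowered, beside 58.7%, 29.3% and 29.4% over all tested genes. The shared scaffold TRIM28 had 811, 810 and 733 CPM after vehicle and 791, 740 and 717 CPM after SCH and was not called (log2 fold change -0.07, edgeR adjusted p = 0.271). Its groups overlapped, and its value depended on single samples, from -0.02 (adjusted p = 0.744) without SCH sample 3 to -0.11 (0.0387, called as lowered) without vehicle sample 3, and turned to 0.04 with library size only. SETDB1, the methyltransferase it recruits, had 27.7, 25.8 and 26.6 CPM after vehicle and 23.6, 24.4 and 24.0 CPM after SCH. It was not called, although its groups did not overlap (log2 fold change -0.15, edgeR adjusted p = 0.0831). Over the 15 other fits the log2 fold change of SETDB1 ran from -0.19 to -0.05, and 1 of them called it as lowered.

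The cofactors with the smallest p all fell. RBBP4, a histone-binding subunit of NuRD, had 120, 119 and 124 CPM after vehicle and 67.5, 71.8 and 74.8 CPM after SCH (log2 fold change -0.76, standard error 0.06, edgeR adjusted p = 4.04e-11). UHRF1, which guides maintenance DNA methylation, went from 312, 319 and 288 CPM to 213, 186 and 201 CPM (log2 fold change -0.62). In both, the groups were far apart. The NuRD subunit MTA1 and the histone methyltransferase EHMT2 had log2 fold changes of -0.56 and -0.61, and the HP1 genes CBX3 and CBX1 of -0.50 and -0.38. The raised cofactors were MORC3, a chromatin ATPase (0.61), the HUSH subunit MPHOSPH8 (0.28), the SETDB1 partner ATF7IP (0.25), the DNA methyltransferase DNMT3B (0.26) and the SUMO ligase PIAS4 (0.24).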

How the data were processed

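The mRNA of MDA-MB-231 cells was sequenced in 3 vehicle-treated and 3 SCH-treated samples. The authors deposited raw counts per gene and FPKM values, and the submitters' processing notes name CASAVA 1.8, HISAT2 2.0.5, featureCounts 1.5.0-p3, DESeq2 1.20.0 and GRCh38. Strandedness and the treatment of multi-mapping reads are not given in the sources used here. Counts were tested with edgeR 4.0.16 in R 4.3.3 (TMM, filterByExpr, quasi-likelihood test, Benjamini-Hochberg over 14736 genes, threshold 0.05). Each standard error is the size of the log2 fold change over the square root of F. Alternatives were RLE, upper quartile and library size scaling, no filter or a minimum of 10 counts per sample, limma 3.58.1 on log2(FPKM + 1) and log2(FPKM + 0.1), DESeq2 1.42.0, a replicate block and each sample left out. The pipeline was tested on simulated data. Fingers and the KRAB A box were searched by pattern in coding transcripts of GENCODE release 29, whose coordinates all 246 genes share, in place of a RefSeq protein table, which was not used here. The KRAB pattern was loosened after a first search matched too few members.

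The members, gene lists and tests were chosen with earlier results of these data known. Named were genes of known role, the 6 highest in FPKM, the 6 largest rises and 6 largest falls with 50 or more counts on average and groups apart, the smallest p in each cluster with at least 5 tested genes, the 3 smallest changes with 100 or more counts on average, TRIM28, SETDB1 and 4 more cofactors, and the pair of most similar proteins. Of the genes whose exons overlap those of another member, 31 in all, 30 were tested, with 11 raised and 7 lowered.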

Additional observations from a re-analysis of the deposited data

How the results depend on the processing

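No called gene changed direction in any of the 15 other fits, and 26 of the 38 genes named by rule kept direction and side of the threshold. The number changed stayed between 91 and 121 over these fits, and with a log2 fold change of 1 or more in size it was 9, of which 8 were raised and 1 lowered. The lowered count of 25 was 13 with library size only, 15 with DESeq2, 15 at an adjusted p under 0.01, 13 among genes with at most 10% of exonic bases shared, a limit chosen after seeing the data, and 16 to 21 with 1 sample left out. The median of 0.25 was 0.36 with library size only, 0.22 with upper quartile scaling and 0.14 with limma on log2(FPKM + 1), a scale that understates low genes. The ratio of summed CPM was 1.202 with library size only. Among single genes and clusters, signs turned for values between -0.20 and 0.012. With library size only, the medians of clusters 19 and 20 were 0.0057 and 0.065, ZNF506 was 0.099 and TRIM28 0.037. ZNF506 was 8.21e-05 with RLE, 0.014 without the filter and 0.0093 with DESeq2, and with upper quartile scaling ZNF444 was -0.027 and ZNF628 -0.021. With 1 sample left out, cluster 20 ran from -0.030 to 0.025, ZNF649 from -0.34 to 0.039, ZNF506 from -0.14 to 0.11, ZNF444 from -0.073 to 0.055 and ZNF628 from -0.081 to 0.13. Calls of ZNF146, ZNF574, ZNF581 and ZNF738 were lost with library size only (adjusted p = 0.137, 0.444, 0.211 and 0.0603), and those of ZNF574, ZNF581 and ZNF738 also with DESeq2 (0.125, 0.118 and 0.108). Without the filter ZNF574 and ZNF581 were lost (0.103 and 0.0545), as was ZNF574 with limma (0.0686 and 0.0662). ZNF93 was called with library size only (0.0279) and SETDB1 with upper quartile scaling (0.0373). The cause of these shifts was not tested.

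No shared deviation of same-numbered samples was seen, with correlations of 0.046, -0.022 and 0.022, inside the range of -0.084 to 0.066 for samples of different number. This does not show whether the samples were handled in pairs. With the replicate block 116 members changed, 91 raised and 25 lowered. Among the named genes the block changed the call of ZNF428 (adjusted p = 0.0366) and no other. Of the 36 genes that the filter removed, 13 had no count in any sample and gave no value, and the other 23 entered the fit without the filter and that of DESeq2.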
